A study of Homo sapiens with 18 samples.

Results

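The SWI/SNF chromatin remodellers are described here through 10 genes that code for their subunits, ARID1A, ARID1B, ARID2, SMARCA2, SMARCA4, SMARCB1, SMARCC1, SMARCC2, SMARCD1 and ACTL6A. They were chosen by symbol, and all 10 were found in each of the 3 deposited tables, which together hold 17561 genes. The cells were Burkitt lymphoma lines, B cell cancers driven by MYC, named BL-41, Namalwa and Jiyoye, the last 2 of which are known to carry Epstein-Barr virus. Each line was infected with a lentivirus that expresses an shRNA against the transcription factor FOXO3 or a scrambled shRNA and a red fluorescent protein in both cases, and infected cells were sorted on day 4. There were 3 libraries in each of the 6 groups, 18 in all, of poly(A)-selected RNA. The labels speak of a single FOXO3 shRNA and of triplicates, without saying that these came from separate cultures. The p-values therefore cover the variation among these libraries alone, and that variation may be technical.

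SWI/SNF complexes use ATP to slide or eject nucleosomes and so open enhancers and promoters. Each complex has 1 ATPase, either SMARCA4 (BRG1) or SMARCA2 (BRM), on a scaffold of SMARCC and SMARCD proteins. Canonical BAF contains ARID1A or ARID1B, PBAF contains ARID2 and PBRM1, and non-canonical BAF contains BICRA or BICRAL with BRD9. In Burkitt lymphoma, ARID1A and SMARCA4 are known as recurrently mutated genes.

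The value of a gene is the normalized value that the authors gave for each arm, FOXO3 shRNA or scrambled shRNA, of each line. The 2 arm values already reflect a fold change moderated by the authors, and an SD could not be given without values for single libraries. Fold changes are log2 values of FOXO3 shRNA over scrambled shRNA. Each standard error (SE) was worked out from a deposited fold change and its p, and genes at an adjusted p under 0.05 in the authors' DESeq2 test are written as called. The values of all genes summed to 17065755 to 18459745 per arm, and the median SE was 0.13 to 0.15 in the 3 lines over genes averaging 100 or more, a level all 10 subunit genes reached. B cell markers were detected in every line, with 6 of 6 present and summed values of 11471 to 47178 with FOXO3 shRNA against 12168 to 55804 with scrambled shRNA, while 4 T cell markers summed to at most 79.7. FOXO3 itself had values of 545, 398 and 384 with FOXO3 shRNA in BL-41, Namalwa and Jiyoye, against 945, 851 and 471 with scrambled shRNA, in the authors' deposited tables. It fell in BL-41 (-0.79, SE 0.14, adjusted p = 3.15e-07) and Namalwa (-1.09, SE 0.16, adjusted p = 2.49e-09) and was not called in Jiyoye (-0.30, SE 0.15, adjusted p = 0.187) by DESeq2 in the authors' deposited tables.

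Among the 10 subunits, the ATPase gene SMARCA2 was the only one called in all 3 lines, and it fell in each. ARID1A rose in BL-41 and Jiyoye. The scaffold gene SMARCC1 fell and the actin-related gene ACTL6A rose in BL-41, and the core gene SMARCB1 rose in Jiyoye. SMARCA4, SMARCC2, SMARCD1, ARID1B and ARID2 were called in none of the lines. In bulk RNA, a change in the makeup of the cells and a change of RNA per cell cannot be told apart. With a single FOXO3 shRNA, effects of lower FOXO3 and other effects of that shRNA cannot be told apart either, also where the lines agree.

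Counted together, 4 of 10 subunits were called in BL-41, where 28.7% of all 16001 genes were called. The 2 that rose stand beside 14.5% of all genes up, and the 2 that fell beside 14.2% down. In Namalwa 1 of 10 was called, a fall, against 6.41% of 15365 genes, of which 2.6% were up and 3.81% down. In Jiyoye 2 rose and 1 fell, so that 3 of 10 were called, against 17.4% of 16787 genes, 8.69% up and 8.7% down. Among genes averaging 100 or more, a filter chosen after seeing the data, 40.7%, 9.61% and 25.5% were called in BL-41, Namalwa and Jiyoye. The subunits' shares were near those of other genes at such levels. The median log2 fold change of the 10 genes was -0.04 for BL-41, -0.01 for Namalwa and 0.21 for Jiyoye, against 0.02, -0.00 and 0.01 over all genes of the authors' deposited tables. In Jiyoye 8 of the 10 fold changes were positive and 2 of these passed the test. Among genes averaging 100 or more, the fold change of SMARCA2 was larger in size than that of 55.8% (BL-41), 87.7% (Namalwa) and 87.7% (Jiyoye), and that of ARID1A exceeded 79.5% in BL-41 and 73.9% in Jiyoye. With the recovered SE raised by 25%, ARID1A in BL-41 and SMARCA2 in Jiyoye were the calls that remained of the 8.

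The start regions of the 2 subunits with the largest fold changes are printed because FOXO3 is a DNA-binding factor, and 2 of SMARCA2 are given because its transcripts begin at several sites. Start windows from the RefSeq promoter table used here (GRCh38.p14) matched 6 of the 10 genes, and each line below is the 250 bases before a start, 5′ to 3′ on the plus strand, with CG dinucleotides in capitals. The ARID1A window is chr1:26695765-26696014 and holds 30 CG dinucleotides. The first SMARCA2 window, chr9:2015097-2015346, precedes exon 1 and holds 29. The second, chr9:2158214-2158463, precedes a start inside intron 27 of the canonical transcript of 34 exons and holds 8, against a median of 11 over all windows of that table. The SMARCA2 windows chr9:2021695-2021944 and chr9:2157412-2157661 hold 0 and 1 and are not printed.
ARID1A: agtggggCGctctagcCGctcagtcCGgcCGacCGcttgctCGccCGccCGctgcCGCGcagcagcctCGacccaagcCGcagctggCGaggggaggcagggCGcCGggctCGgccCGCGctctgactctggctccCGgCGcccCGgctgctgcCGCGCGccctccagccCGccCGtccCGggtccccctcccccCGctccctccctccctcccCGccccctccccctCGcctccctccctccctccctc
SMARCA2, exon 1 start: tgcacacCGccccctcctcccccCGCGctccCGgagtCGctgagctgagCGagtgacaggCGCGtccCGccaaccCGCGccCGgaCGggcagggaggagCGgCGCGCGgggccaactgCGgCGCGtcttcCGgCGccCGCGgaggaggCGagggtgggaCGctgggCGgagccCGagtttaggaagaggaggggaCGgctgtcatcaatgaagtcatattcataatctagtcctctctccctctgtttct
SMARCA2, intron 27 start: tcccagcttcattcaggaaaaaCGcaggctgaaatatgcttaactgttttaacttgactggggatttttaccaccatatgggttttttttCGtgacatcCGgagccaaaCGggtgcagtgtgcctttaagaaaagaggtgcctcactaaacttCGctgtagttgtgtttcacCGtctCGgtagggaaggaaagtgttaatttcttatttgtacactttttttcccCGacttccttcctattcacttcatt
Windows of 300 bases, from 250 before to 50 after each start, were searched on both strands for the forkhead words GTAAACA and ATAAACA. Neither word was in any of the 11 windows of these 6 subunit genes. Of all 35116 windows of the table, 3.42% held the first word and 4.24% the second. With shares this low, 11 windows of any genes would often hold neither word, so the search says nothing about FOXO3 binding, which was not tested. ARID2, SMARCC1, SMARCC2 and ACTL6A had no window and were not searched.

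The first group is the ATPases. SMARCA2 lies on chromosome 9 from 2015347 to 2193620 and codes for BRM. In BL-41 the authors' deposited table gave SMARCA2 a value of 1403 with FOXO3 shRNA and 1771 with scrambled shRNA, a log2 fold change of -0.34 (SE 0.13, adjusted p = 0.0402, DESeq2). In Namalwa the values in the authors' deposited table were 1425 with FOXO3 shRNA and 1830 with scrambled shRNA (-0.36, SE 0.10, adjusted p = 0.0137, DESeq2). The SMARCA2 value fell by 20.8% in BL-41 and fell by 22.1% in Namalwa, so these lines were close to each other. The authors' deposited table for Jiyoye gave 2585 with FOXO3 shRNA and 3890 with scrambled shRNA (-0.59, SE 0.14, adjusted p = 0.000441, DESeq2). There it fell by 33.5%, the only 1 of the 30 subunit values that the authors' deposited tables also mark as up or down, a mark given from about 0.58 on the log2 scale. The responses of SMARCA2 did not pass the test of a difference between any 2 lines, the widest being BL-41 minus Jiyoye (0.25, 95% interval -0.12 to 0.63, adjusted p = 0.543). Of 14549 genes in all 3 tables, 263 (1.81%) were called down in every line.

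SMARCA4, on chromosome 19 from 10961030 to 11062273, codes for BRG1 and was second to SMARCB1 per length in both arms of Namalwa. The authors' deposited tables gave SMARCA4 6064 with FOXO3 shRNA and 5952 with scrambled shRNA in BL-41, 8996 and 7922 in Namalwa, and 5281 and 4624 for Jiyoye, in that order of arms. Its log2 fold changes of 0.03 (SE 0.11), 0.18 (SE 0.09) and 0.19 (SE 0.13) were not called (adjusted p = 0.894, 0.26 and 0.353 by DESeq2, from the authors' deposited tables). The 95% intervals of SMARCA4 were -0.19 to 0.24 (BL-41), 0.01 to 0.36 (Namalwa) and -0.06 to 0.44 (Jiyoye).

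Since a complex takes only 1 ATPase, the balance of the pair was set out per length, as the value divided by the gene length in the same table. These are values of whole genes, which do not separate full-length transcripts from short ones. With FOXO3 shRNA, SMARCA2 made up 24.3% of the summed value of the 2 ATPase genes in BL-41, against 29.3% with scrambled shRNA. In Namalwa its share was 19.2% with FOXO3 shRNA and 25.7% with scrambled shRNA. In Jiyoye the share per length was 37.5% with FOXO3 shRNA and 50.8% with scrambled shRNA. SMARCA2 was thus slightly above SMARCA4 in the scrambled arm of Jiyoye per length, but below it without the division by length (45.7%). The log2 fold change of SMARCA2 minus that of SMARCA4 was -0.36 (SE 0.17) for BL-41, -0.54 (SE 0.14) for Namalwa and -0.78 (SE 0.19) for Jiyoye, where the SE treats the errors of the 2 genes as independent. These differences are given as a description, with no test.

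**Figure D1:**
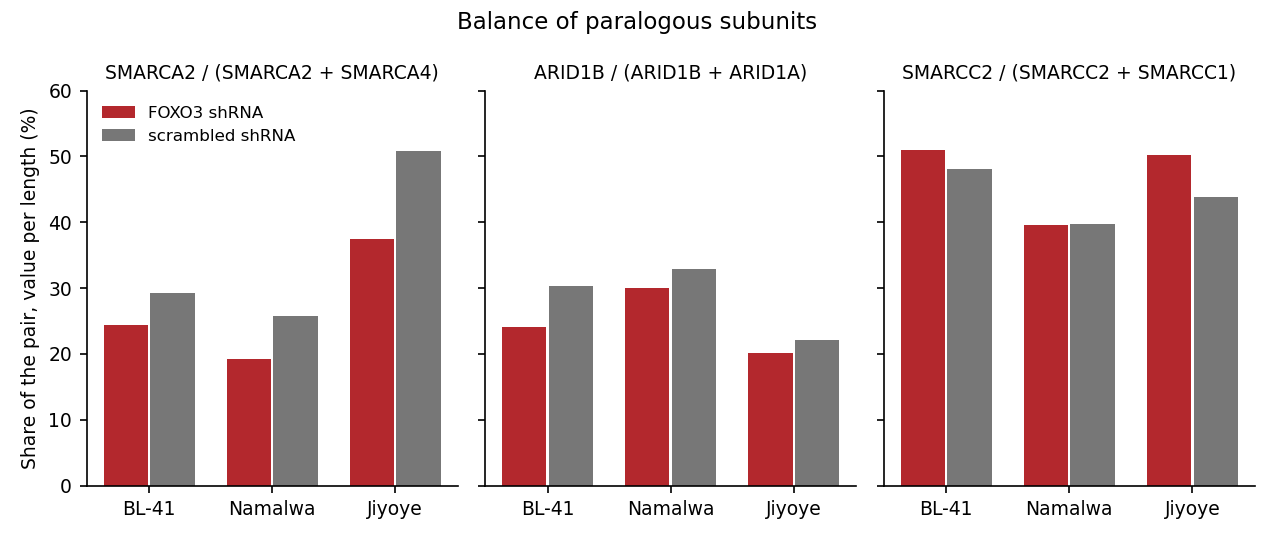
Share of a paralogue pair held by 1 gene (vertical axis, percent, from the normalized value per length) in BL-41, Namalwa and Jiyoye, with FOXO3 shRNA in red and scrambled shRNA in grey. There are no error bars because each bar is 1 deposited value per arm. SMARCA2 had the lower share with FOXO3 shRNA in all 3 lines, from 19.2% to 37.5% against 25.7% to 50.8%.

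The gene length that enters these shares differed between the tables for SMARCA2 more than for the other 9 subunits. It was 3883 bases for BL-41, 3610 for Namalwa and 4410 for Jiyoye, a ratio of longest to shortest of 1.22, which only 424 of 14549 genes (2.91%) exceeded. How the lengths were set is not given in the sources used here. The canonical SMARCA2 transcript of GENCODE 44 has 5748 bases, and 19 of its 47 protein-coding transcripts both start late in the gene and extend to its 3′ end region, with 630 to 2242 bases. How much of the SMARCA2 value came from such short transcripts is not known, so the shares cannot be read as shares of full-length ATPase transcripts. ARID2 came next (8610, 7999 and 8034 bases, ratio 1.08), and SMARCB1 and SMARCC1 had the same length in each table. Without the division by length, the SMARCA2 share of the pair was 18.8%, 13.7% and 32.9% with FOXO3 shRNA, against 22.9%, 18.8% and 45.7% with scrambled shRNA, in BL-41, Namalwa and Jiyoye.

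The second group is the scaffold and core. SMARCC1 (BAF155, chromosome 3 from 47585269 to 47781893) and SMARCC2 (BAF170, chromosome 12 from 56162359 to 56189483) code for the paired scaffold proteins. In BL-41 the authors' deposited table gave SMARCC1 3937 with FOXO3 shRNA and 4761 with scrambled shRNA, a called fall (-0.27, SE 0.10, adjusted p = 0.031, DESeq2). For Jiyoye the authors' deposited table had 3695 with FOXO3 shRNA and 4530 with scrambled shRNA, a difference of like size that just missed the threshold (-0.29, SE 0.12, adjusted p = 0.0571, DESeq2). Its Namalwa values in the authors' deposited table were 5597 and 5936 for the same arms (-0.08, SE 0.08, adjusted p = 0.699, DESeq2). SMARCC1 was thus lower with FOXO3 shRNA in all 3 tables and called in 1. SMARCC2 had log2 fold changes of -0.11 for BL-41, -0.09 for Namalwa and 0.08 for Jiyoye (SE 0.08 to 0.11), none called, in the authors' deposited tables. The SMARCC2 share of the pair per length was 50.9%, 39.6% and 50.2% with FOXO3 shRNA and 48.1%, 39.7% and 43.8% with scrambled shRNA in BL-41, Namalwa and Jiyoye.

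SMARCB1 (BAF47), on chromosome 22 from 23786966 to 23838009, codes for a core subunit of BAF and PBAF that contacts the nucleosome and is lost in rhabdoid tumours. It had the highest level per length of the 10 genes in both arms of every line. The authors' deposited table for Jiyoye gave SMARCB1 2726 with FOXO3 shRNA and 2213 with scrambled shRNA, a called rise (0.30, SE 0.11, adjusted p = 0.0442, DESeq2). In BL-41 the authors' deposited table gave 3687 with FOXO3 shRNA and 4126 with scrambled shRNA (-0.16, SE 0.12, adjusted p = 0.361, DESeq2), the opposite sign. Namalwa had 3425 and 3146 for these arms in the authors' deposited table (0.12, SE 0.11, adjusted p = 0.678, DESeq2). The SMARCB1 response in BL-41 minus that in Jiyoye was -0.46 (SE 0.16), which missed the threshold of the z test of the difference (Benjamini-Hochberg adjusted p = 0.0659). SMARCD1 (BAF60A, chromosome 12 from 50085342 to 50100707) had fold changes ordered in the same way, -0.11 for BL-41, 0.04 for Namalwa and 0.23 for Jiyoye (SE 0.09 to 0.13), and none was called in the authors' deposited tables.

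ACTL6A (BAF53A), on chromosome 3 from 179562926 to 179588407, codes for an actin-related protein that SWI/SNF shares with the INO80 and NuA4 complexes. The authors' deposited table gave ACTL6A 2430 with FOXO3 shRNA and 1930 with scrambled shRNA in BL-41, a called rise of 25.9% (0.33, SE 0.12, adjusted p = 0.027, DESeq2). Jiyoye had 1804 with FOXO3 shRNA and 1416 with scrambled shRNA in the authors' deposited table, which was not called at a fold change of the same size (0.35, SE 0.14, adjusted p = 0.0692, DESeq2). In Namalwa these values were 2691 and 2427 in the authors' deposited table (0.15, SE 0.09, adjusted p = 0.41, DESeq2).

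The third group is the ARID subunits, which define the form of the complex. ARID1A (BAF250A, chromosome 1 from 26696015 to 26782104) had the largest rise of the 10 genes. In BL-41 the authors' deposited table gave ARID1A 7343 with FOXO3 shRNA and 4913 with scrambled shRNA, a rise of 49.5% (0.58, SE 0.11, adjusted p = 3.18e-06, DESeq2). The Jiyoye values in the authors' deposited table were 5934 with FOXO3 shRNA and 4478 with scrambled shRNA, a rise of 32.5% (0.41, SE 0.12, adjusted p = 0.0065, DESeq2). Namalwa had 4882 and 4474 for the same arms in the authors' deposited table (0.13, SE 0.10, adjusted p = 0.609, DESeq2). The values of the 3 lines lay closer together with scrambled shRNA than with FOXO3 shRNA. The tables were normalized separately, so this does not compare levels between lines. The response in BL-41 was larger than that in Namalwa by 0.45 (SE 0.15), past the z test of a difference between lines (Benjamini-Hochberg adjusted p = 0.0346), the only such test of 30 among the subunits to pass. In that comparison 7.01% of all 14789 genes passed. For BL-41 minus Jiyoye 0 of 10 subunits passed the z test (2 at an unadjusted p under 0.05), against 6.25% of all genes, and for Namalwa minus Jiyoye 0 of 10 (1 at an unadjusted p under 0.05), against 2.75%. With the recovered SE raised by 25% the ARID1A difference did not pass (adjusted p = 0.232). Jiyoye did not differ from BL-41 (0.17 for BL-41 minus Jiyoye, 95% interval -0.14 to 0.49) or from Namalwa (-0.28 for Namalwa minus Jiyoye, 95% interval -0.58 to 0.02) past the test.

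ARID1B (BAF250B), on chromosome 6 from 156776026 to 157210779, takes the place of ARID1A in canonical BAF. Its values in the authors' deposited tables were 2663 with FOXO3 shRNA and 2450 with scrambled shRNA (BL-41), 2388 and 2493 (Namalwa), and 1700 and 1438 (Jiyoye). The fold changes of ARID1B were 0.12, -0.06 and 0.24 (SE 0.08 to 0.12) and none was called (adjusted p = 0.538, 0.854 and 0.173 by DESeq2, from the authors' deposited tables). Per length, ARID1B made up 24.1%, 30.0% and 20.2% of the ARID1 pair with FOXO3 shRNA in BL-41, Namalwa and Jiyoye, against 30.4%, 32.8% and 22.1% with scrambled shRNA. The log2 fold change of ARID1B minus that of ARID1A was -0.46 (SE 0.16) in BL-41, and it was smaller beside its error in Namalwa (-0.19, SE 0.13) and Jiyoye (-0.16, SE 0.17). ARID2 (BAF200, chromosome 12 from 45729706 to 45908037), the PBAF subunit, was the least abundant of the 10 per length in every line. Its fold changes of 0.08, -0.05 and 0.11 (SE 0.12 to 0.15) were not called in the authors' deposited tables.

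**Figure D2:**
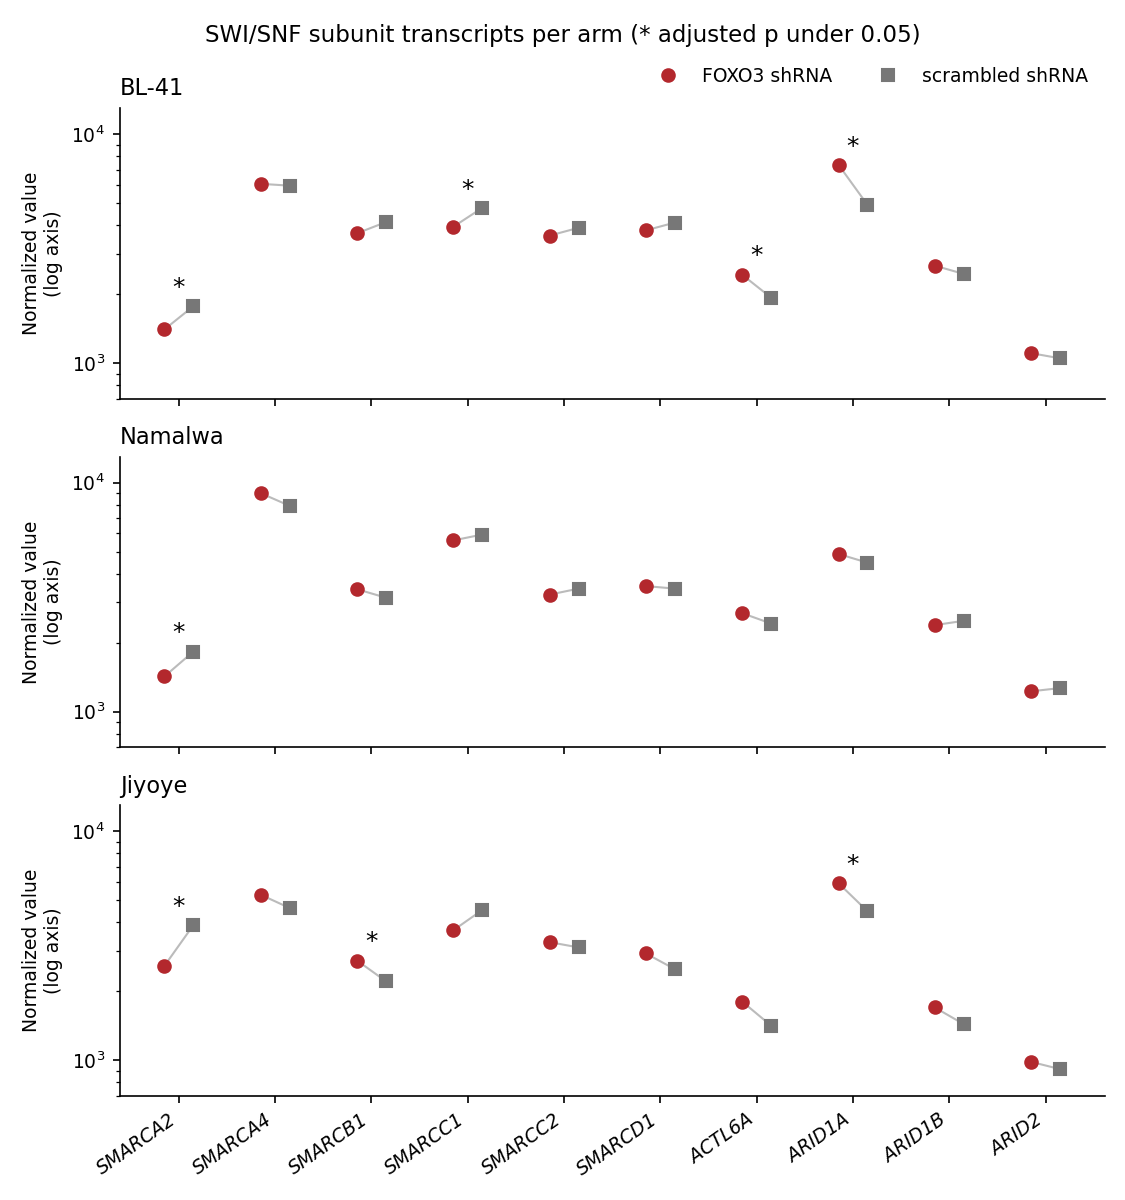
Normalized value per arm (log axis) of the 10 subunit transcripts in BL-41, Namalwa and Jiyoye, with FOXO3 shRNA as red circles to the left of scrambled shRNA as grey squares, and an asterisk over pairs with an adjusted p under 0.05. Each point is 1 deposited value for an arm, without an error. SMARCA2 sits lower with FOXO3 shRNA in all 3 panels, and ARID1A sits higher in BL-41 (7343 against 4913) and Jiyoye (5934 against 4478).

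Per length, SMARCB1 was the highest and ARID2 the lowest of the 10 genes in both arms of every line. With FOXO3 shRNA, levels in BL-41 ran from 2118 normalized units per kilobase for SMARCB1 to 128 for ARID2, against 2370 and 122 with scrambled shRNA. In Namalwa the same 2 genes stood at 1967 and 153 with FOXO3 shRNA and at 1807 and 158 with scrambled shRNA, and in Jiyoye at 1566 and 123, against 1271 and 114. SMARCA2 was the gene whose place in the scrambled arm differed most between lines. It stood at 361, 395 and 586 units per kilobase with FOXO3 shRNA in BL-41, Namalwa and Jiyoye, and at 456, 507 and 882 with scrambled shRNA. In the scrambled arm it held the eighth place in BL-41 and Namalwa and the second in Jiyoye, where 5 genes from SMARCA2 to SMARCD1 lay between 882 and 734. No spread between libraries was at hand to say which neighbours in these orders differ. In the scrambled arms all 10 genes stood above the middle of all genes per length, from the 53.6th to the 97.5th percentile.

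**Figure D3:**
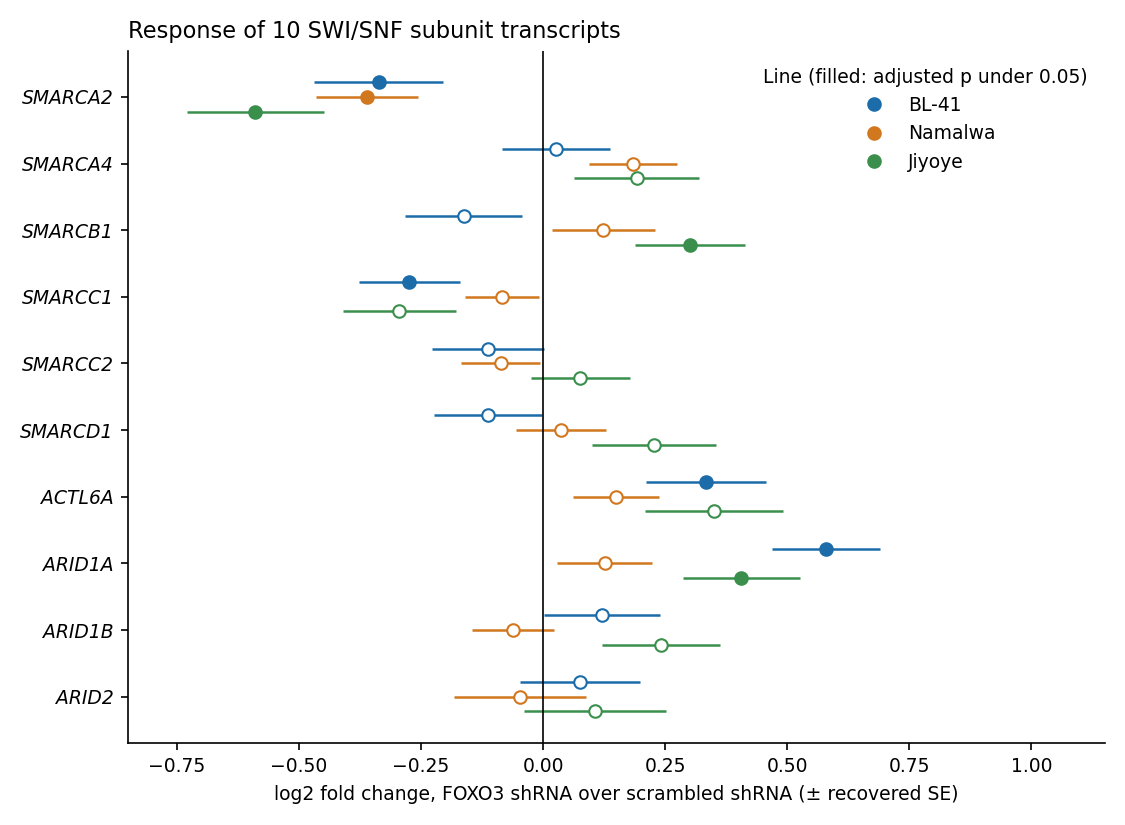
Log2 fold change of FOXO3 shRNA over scrambled shRNA (horizontal axis) of the 10 subunit transcripts in BL-41 (blue), Namalwa (orange) and Jiyoye (green), with bars of 1 recovered SE and filled points where the adjusted p was under 0.05. SMARCA2 lies left of 0 in all 3 lines (-0.34, -0.36 and -0.59), and 8 of 30 points are filled.

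The mean of the 3 fold changes was tested for each gene, since the lines share no control libraries. Over all 14549 genes, 37.2% passed this test, and of the 10 subunits 4 did. SMARCA2 fell by 0.43 on the log2 scale (SE 0.07, adjusted p = 5.93e-08) and was lower in 3 of 3 lines. ARID1A rose by 0.37 (SE 0.06, adjusted p = 6.14e-08), with a positive fold change in 3 of 3 lines. ACTL6A (0.28, SE 0.07, adjusted p = 0.000355) and SMARCC1 (-0.22, SE 0.06, adjusted p = 0.000769) also passed, each with 1 sign in 3 of 3 lines. SMARCA4 (0.13, 95% interval 0.01 to 0.26, adjusted p = 0.0858) did not pass. The other 5 means lay between -0.04 and 0.10, with 95% intervals from -0.15 at the lowest to 0.22 at the highest. This z test speaks for the mean of these 3 lines and not for Burkitt lymphoma lines at large. Of the 10 genes, 5 had 1 sign in all 3 lines, against 50.2% of all genes.

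A further 21 SWI/SNF subunit genes set the 10 in context, of which 20 were in each table and ACTL6B was found by symbol in none. In BL-41 3 of the 20 rose, 2 fell and 15 were not called. In Namalwa 1 rose and 19 were not called, and in Jiyoye 4 rose, 1 fell and 15 were not called. Their median log2 fold changes were -0.02, 0.06 and 0.09. Over all genes 28.7%, 6.41% and 17.4% were called in these lines, and over genes averaging 100 or more 40.7%, 9.61% and 25.5%. Of the 20 genes, 17, 18 and 17 reached that level in BL-41, Namalwa and Jiyoye. In the test of the mean over lines, 5 of the 20 rose (SS18, BICRA, ACTB, BCL7C and SMARCD2), against 19% of all genes. In the same test 3 fell (BRD9, PHF10 and BICRAL), against 18.3% of all genes. SMARCD2, BRD9 and PHF10 were called in no single line.

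SS18, a subunit of canonical and non-canonical BAF that is fused to SSX in synovial sarcoma, was the only one of these 20 genes called in all 3 lines, and it rose in each. The authors' deposited tables gave SS18 2737 with FOXO3 shRNA and 1448 with scrambled shRNA in BL-41 (0.92, SE 0.13, adjusted p = 1.89e-11), 2171 and 1378 for Namalwa (0.66, SE 0.10, adjusted p = 4.72e-09), and 4383 and 2455 for Jiyoye (0.84, SE 0.12, adjusted p = 6.88e-11), all by DESeq2. Its response did not pass a test of a difference between lines, the widest being BL-41 minus Namalwa (0.26, 95% interval -0.05 to 0.57). Of all genes, 215 (1.48%) were called up in the 3 lines. BICRA, a subunit of non-canonical BAF, rose in BL-41 (0.67, adjusted p = 1.07e-05) and Jiyoye (1.13, adjusted p = 4.56e-10) and had 0.24 in Namalwa (adjusted p = 0.263) in the authors' deposited tables (DESeq2). Its paralogue BICRAL fell in BL-41 (-0.43, adjusted p = 0.0021) and was not called in Namalwa (-0.23) or Jiyoye (0.08) in the authors' deposited tables (DESeq2).

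The actin gene ACTB, whose product is a subunit of BAF as well as of the cytoskeleton, rose in BL-41 (0.66, adjusted p = 2.29e-10) and Jiyoye (0.65, adjusted p = 1.65e-07) and had 0.26 in Namalwa (adjusted p = 0.327) in the authors' deposited tables (DESeq2). It has many processed pseudogenes that can share its reads, so its value is uncertain. BCL7A, an accessory subunit mutated in B cell lymphoma, fell for BL-41 (-0.42, adjusted p = 0.00372) in the authors' deposited table (DESeq2). In Jiyoye BCL7C, a relative of BCL7A, rose (0.72, adjusted p = 0.000104) and SMARCE1, the HMG subunit BAF57, fell (-0.31, adjusted p = 0.0279) in the authors' deposited table (DESeq2). BCL7A, SMARCE1, SMARCD2, BRD9 and PHF10 lie outside the rule for named genes and are named because they passed a test.

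**Figure D4:**
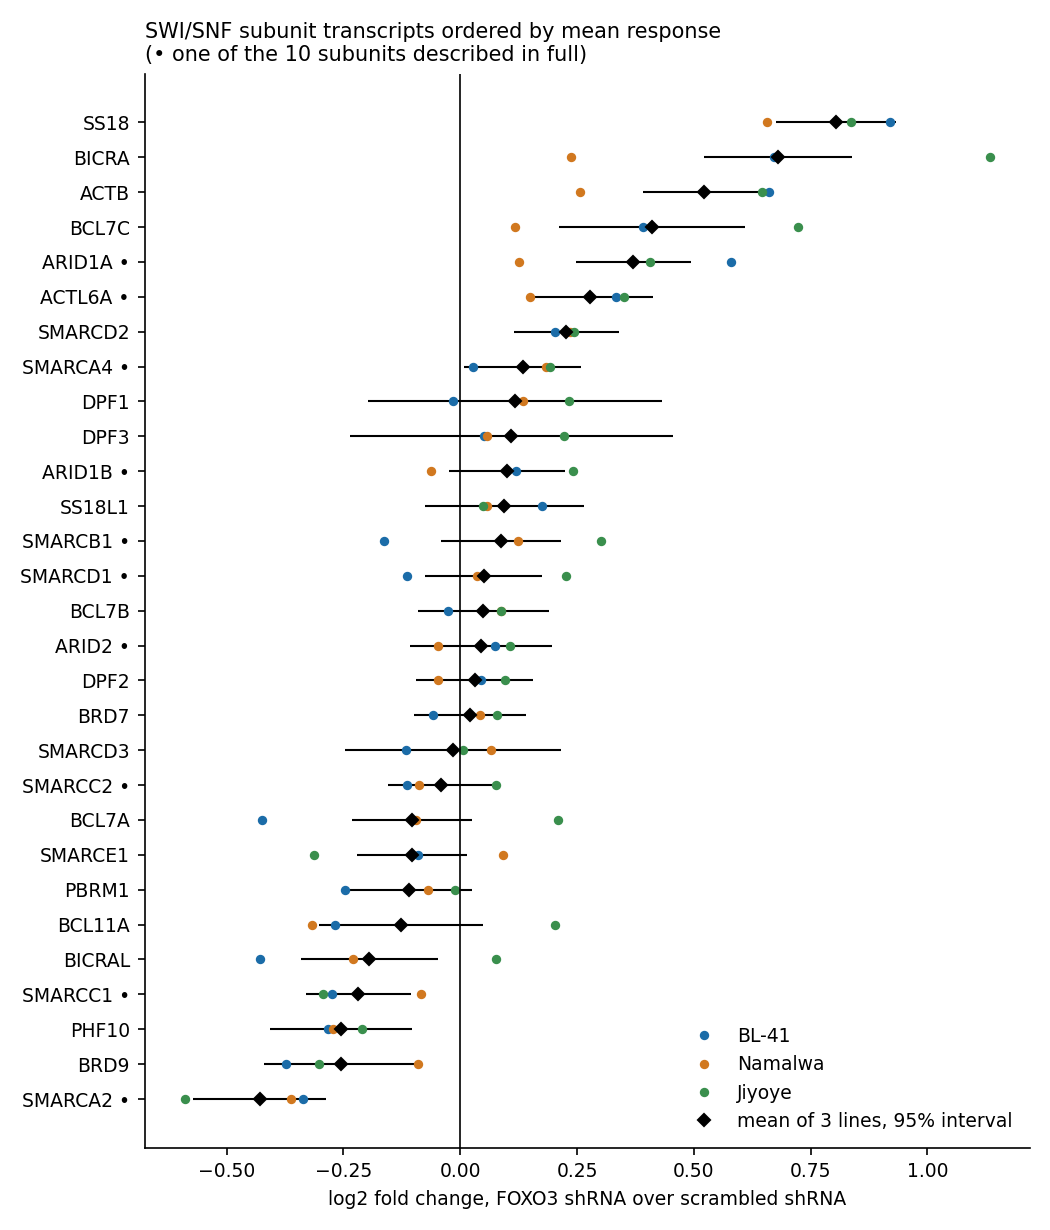
Mean log2 fold change of FOXO3 shRNA over scrambled shRNA over the 3 lines (black diamonds, with the 95% interval from the recovered SE) and the value of each line (coloured points) for 29 SWI/SNF subunit transcripts, ordered by the mean. BCL11B, with low values, is left out. SS18 (0.80) and BICRA (0.68) lie at the top and SMARCA2 (-0.43) at the bottom.

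Of 4 myeloid markers 2 (LYZ and CD14) rose in BL-41, where 14.5% of all genes rose. The 4 summed to 155 with FOXO3 shRNA against 59.4 with scrambled shRNA. CD14 had low values there (26.7 with FOXO3 shRNA, 5.25 with scrambled shRNA). ITGAM (12.1 against 11.4) and CSF1R (9.13 against 4.84) were not called in BL-41. The sum was 150 against 153 in Namalwa and 297 against 227 in Jiyoye, where CD14 alone rose, also at low values (14.2 against 5.66). The B cell markers summed to 47178 with FOXO3 shRNA and 55804 with scrambled shRNA in BL-41. There 2 of 6 fell, against 14.2% of all genes, while in Jiyoye 2 of 6 rose, against 8.69% of all genes. Fibroblast and epithelial markers were low in BL-41 and Namalwa and summed to 1971 with FOXO3 shRNA against 3153 with scrambled shRNA in Jiyoye, mostly KRT8. The part of these differences in the subunit results was not tested.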

How the data were processed

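RNA was selected with oligo-dT, per the labels' protocols. Per the series' design text, the authors filtered reads using SOAPnuke, mapped them to hg38 with Bowtie2, measured expression with RSEM and had DESeq2 test it. No versions are given in the sources used here. Per line there is 1 table that the authors deposited, with a normalized signal value per arm, a moderated log2 fold change, and p-values with adjusted p-values from their DESeq2 test. The ratio of the arm values equalled the deposited fold change (largest difference 1.39e-14), and Benjamini-Hochberg adjustment of the deposited p-values over the whole table gave the deposited adjusted values (largest difference 3.56e-15).

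The planned test of read counts needs single libraries and was not possible, so calls are those of the authors. The SE is the size of the fold change divided by the normal quantile that its p implies. As the fold changes are moderated, each SE is on the moderated scale. How far they were moderated is not known and may differ between lines, which the tests between lines do not allow for. Differences between lines, in 3 pairs, and the mean of the 3 lines were tested with two-sided z tests of fold changes and recovered SE, adjusted by Benjamini-Hochberg over all genes shared by the tables. They treat libraries of different lines as independent. Depth per library is unknown, and intervals are at 95%.

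The 10 genes and the lists were chosen with earlier results of these data known. All 10 are named in each line. Of the lists of other subunits and other remodellers, the text names up to 4 called genes per line with the smallest adjusted p and genes called alike in 3 lines. Positions are from RefSeq (GRCh38.p14), matched by gene ID for all 10, and transcripts from GENCODE 44. The software was scipy 1.17.1, numpy 2.4.6, matplotlib 3.10.9 and pandas 2.3.3 under Python 3.11.15.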

Additional observations from a re-analysis of the deposited data

Results flagged for a closer look

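These results passed the test of a difference in response between 2 lines (z test of fold changes, Benjamini-Hochberg over all genes). Each value is the log2 fold change of the line named first minus that of the other. For BL-41 minus Namalwa, BL-41 minus Jiyoye and Namalwa minus Jiyoye, 7.01%, 6.25% and 2.75% of all genes passed. In that order of pairs 1, 0 and 0 of the 10 subunits passed. Of 20 other SWI/SNF subunits 0, 1 and 1 passed, and of 32 other remodellers 3, 3 and 1. Among the 10 subunits, ARID1A differed between BL-41 and Namalwa by 0.45 (SE 0.15, adjusted p = 0.0346). Among other SWI/SNF subunits, BCL7A differed between BL-41 (-0.42) and Jiyoye (0.21) by -0.63 (SE 0.17, adjusted p = 0.00837). BICRA differed between Namalwa (0.24) and Jiyoye (1.13) by -0.89 (SE 0.20, adjusted p = 0.00161). FOXO3, the target of the shRNA, also passed this z test for Namalwa (-1.09) minus Jiyoye (-0.30), by -0.80 (SE 0.22, adjusted p = 0.0174). It did not pass for BL-41 minus Namalwa (0.30, adjusted p = 0.486) or BL-41 minus Jiyoye (-0.50, adjusted p = 0.136). The part of this unequal fall of FOXO3 in the other differences was not tested.

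Of the other remodellers, BAZ1B differed between BL-41 and Jiyoye by 0.54 (SE 0.18, adjusted p = 0.0411) and CHD8 by 0.51 (SE 0.17, adjusted p = 0.0453). BAZ2B had -0.76 in Jiyoye, and the difference was 0.79 for BL-41 minus Jiyoye (SE 0.21, adjusted p = 0.00885) and 0.77 for Namalwa minus Jiyoye (SE 0.23, adjusted p = 0.0419). Between BL-41 and Namalwa, CHD4 differed by 0.54 (SE 0.16, adjusted p = 0.0198), HELLS by -0.84 (SE 0.24, adjusted p = 0.0141) and RUVBL1 by -0.56 (SE 0.17, adjusted p = 0.0179). BAZ1B, CHD8 and RUVBL1 are named here because they passed this test.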

How the results depend on the processing

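No paired analysis was possible because the deposited columns carry no values per library, and leaving out a library could not be run for the same reason. Called subunits numbered 4 for BL-41, 1 for Namalwa and 3 for Jiyoye. At an adjusted p under 0.01 they numbered 1, 0 and 2, and with a limit of 0.5 on the log2 scale 1, 0 and 1. With the recovered SE raised by 25% they numbered 1, 0 and 1, leaving ARID1A in BL-41 and SMARCA2 in Jiyoye. Jiyoye gave 5 at an adjusted p under 0.1, and also 5 when p was adjusted over genes averaging 100 or more, where SMARCC1 (adjusted p = 0.0391) and ACTL6A (adjusted p = 0.0477) passed. The difference of ARID1A between BL-41 and Namalwa did not pass with the raised SE (adjusted p = 0.232), which left 0 subunits past that test. At an adjusted p under 0.1, BL-41 minus Jiyoye had 1 subunit past it (SMARCB1). The 4 subunits past the test of the mean over lines were 4 under each of the 3 other scalings, filters and errors tried. Without Jiyoye the mean turned to -0.020 for SMARCB1 and -0.038 for SMARCD1, and without BL-41 SMARCB1 passed (0.21, adjusted p = 0.0301). Of 150 fold changes of single subunits under other settings, 142 were counted as the same, 6 calls were lost and 2 were gained. All 6 losses came with the raised SE. The settings that added a constant to the arm values held no new test. They counted as the same when the fold change moved by less than 1 SE, so they say nothing about calls. A value not called at first could not lose a call.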

Other observations

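Other ATP-dependent remodellers and their partners, a list of 33 genes of the ISWI, CHD, INO80 and related families, are given for comparison. Of 32 measured in BL-41 7 rose and 4 fell, against 28.7% of all genes called. All 32 averaged 100 or more there, and 40.7% of genes at such levels were called. EP400 (0.57, adjusted p = 1.09e-05), SRCAP (0.58, adjusted p = 1.38e-05) and CHD4 (0.60, adjusted p = 4.39e-05) rose in the authors' deposited table (DESeq2). EP400 and SRCAP code for ATPases that exchange the histone H2A.Z, and CHD4 for the ATPase of the NuRD complex. ATRX, an ATPase that deposits H3.3 with DAXX, fell in BL-41 (-0.53, adjusted p = 1.42e-05) in the authors' deposited table (DESeq2).

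In Jiyoye 1 of 33 rose and 5 fell, against 17.4% of all genes called. Of the 33, 31 averaged 100 or more there, and 25.5% of genes at such levels were called. CHD3 (-0.61, adjusted p = 1.9e-07), BAZ2B (-0.76, adjusted p = 4.88e-05), ATRX (-0.57, adjusted p = 0.0031) and HELLS (-0.49, adjusted p = 0.023) fell in the authors' deposited table (DESeq2), CHD3 being the paralogue of CHD4. In BL-41 CHD3 had -0.35 (adjusted p = 0.00975) and HELLS -0.95 (adjusted p = 8.08e-05) in the authors' deposited table (DESeq2). In Namalwa 0 of 32 were called by DESeq2 (8 at an unadjusted p under 0.05), against 6.41% of all genes and 9.61% of genes averaging 100 or more. The median log2 fold change of the list was 0.08 for BL-41, 0.06 for Namalwa and 0.01 for Jiyoye.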
